A study of Homo sapiens with 12 samples.

Results

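The 10 genes described here encode subunits of the SWI/SNF chromatin remodelling complexes: the ATPases SMARCA4 and SMARCA2, the core subunits SMARCB1, SMARCC1, SMARCC2 and SMARCD3, and the ARID and bromodomain subunits ARID1A, ARID1B, ARID2 and PBRM1. The rule that chose them is a list of gene names and uses no measured value, although the list was drawn up with earlier results of these data known. All 10 were found among the 14438 genes of the count table. SWI/SNF complexes use the energy of ATP hydrolysis to slide or evict nucleosomes and thereby open chromatin. Genetic work in flies and in human tumours has placed them in opposition to Polycomb repression, in which EZH2, the catalytic subunit of Polycomb repressive complex 2, methylates histone H3 at lysine 27. Tumours that have lost SMARCB1 or ARID1A have been examined for their dependence on EZH2 for this reason, and the transcript level of each subunit in cells with altered EZH2 activity is the quantity described here.

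RNA was sequenced from HEK293T cells, an established and easily transfected human embryonic kidney line. Each of the 4 lines carried 1 lentiviral EZH2 construct and kept the endogenous EZH2 gene: EZH2 WT, Y641F, A677G, or the double mutant H689A/F667I. The study treats Y641F and A677G as gain-of-function mutants and H689A/F667I as a loss-of-function mutant, and each was sequenced in 3 replicates, giving 12 samples. Transduced cells were selected with blasticidin, and the study describes the resulting populations as monoclonal, so that a difference between constructs and a difference between transduced lines cannot be told apart. The study calls its replicates biological, but the sources used here do not say whether they came from separate cultures, and the p-values below measure only the spread between these samples, which may be technical.

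Total counts ran from 32137700 to 44562413 per sample, and levels are given as CPM, the count of a gene scaled to the size of its library. Counts of EZH2, which hold endogenous and introduced transcripts together, averaged 158 ± 4.32 CPM (SD, n = 3) in the WT line, 218 ± 9.61 in Y641F, 173 ± 8.57 in A677G and 208 ± 2.03 in H689A/F667I. Of the 6 HEK293T marker genes listed, 5 were measured at 68.6 to 272 CPM and PAX2 at 0 to 25 counts. COL1A1, a fibroblast gene, lay at 5.43 to 9.72 CPM and EPCAM, an epithelial gene, at 0.393 to 1.06 CPM.

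Start sites of 7 of the 10 genes could be matched to RefSeq promoters (GRCh38.p14), in 15 windows of 300 bases that run from 250 bases before to 50 bases after a start. SMARCC1, SMARCC2 and ARID2 had no matched window. The sequences of 3 windows are printed for the members with the largest differences described below, chosen after their values were seen: SMARCA4, and SMARCD3, whose single gene-level count pools transcripts from several starts. CpG dinucleotides, which the search counted on the printed strand, are in capitals. The SMARCA4 window is chr19:10960780-10961079, on the plus strand, and the SMARCD3 windows are chr7:151277100-151277399 and chr7:151248645-151248944, on the minus strand, each written 5′ to 3′.
SMARCA4 start 1: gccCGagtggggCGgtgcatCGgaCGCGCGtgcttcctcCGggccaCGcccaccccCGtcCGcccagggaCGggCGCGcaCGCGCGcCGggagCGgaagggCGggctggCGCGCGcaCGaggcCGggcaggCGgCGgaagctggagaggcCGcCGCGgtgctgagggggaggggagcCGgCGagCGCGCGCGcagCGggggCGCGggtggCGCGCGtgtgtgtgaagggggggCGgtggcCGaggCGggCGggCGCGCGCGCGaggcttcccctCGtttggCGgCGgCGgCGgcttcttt
SMARCD3 start 1: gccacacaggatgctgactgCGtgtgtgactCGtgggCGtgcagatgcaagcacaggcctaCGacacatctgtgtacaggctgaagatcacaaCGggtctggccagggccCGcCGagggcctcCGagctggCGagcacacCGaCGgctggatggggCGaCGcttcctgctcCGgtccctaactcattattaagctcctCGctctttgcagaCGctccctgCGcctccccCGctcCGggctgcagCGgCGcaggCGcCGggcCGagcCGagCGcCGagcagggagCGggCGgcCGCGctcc
SMARCD3 start 3: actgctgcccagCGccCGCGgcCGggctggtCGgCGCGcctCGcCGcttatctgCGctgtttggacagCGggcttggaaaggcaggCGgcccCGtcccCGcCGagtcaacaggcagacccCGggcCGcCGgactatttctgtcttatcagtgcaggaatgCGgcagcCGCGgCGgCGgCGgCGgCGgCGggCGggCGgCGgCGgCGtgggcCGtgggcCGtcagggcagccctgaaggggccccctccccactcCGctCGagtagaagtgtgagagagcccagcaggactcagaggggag
The printed SMARCA4 window held 55 CpGs and the printed SMARCD3 windows 31 and 36. Between 1 and 55 CpGs were found in the 15 windows, and 9 of them held at least 20, a number reached by 41.2% of the 35116 promoters in the table, whose median was 14. Windows of the same gene differed: the second SMARCA4 start had 5 CpGs, and the second SMARCD3 start, which is not printed, had 1. SMARCA2 had 30 at its first start and 3, 4 and 9 at the others. These letters describe the windows only, since the count table holds no value for a single start.

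Levels of different genes were first set beside each other after division by length. Per kilobase of coding sequence, SMARCC1 stood highest at 122.7 CPM, followed by SMARCB1 at 116.0, and both lay in the upper part of the 12907 genes with a coding length, at percentiles 89.4 and 88.7. SMARCC1 is a scaffold of SWI/SNF complexes and SMARCB1 a core subunit that contacts the nucleosome. SMARCA4 followed at 52.0 CPM per coding kilobase. The middle of the order was taken by PBRM1 at 21.4, SMARCD3 at 20.6 and SMARCC2 at 18.9. ARID2 at 12.3, SMARCA2 at 11.97, ARID1B at 8.80 and ARID1A at 8.06 closed the order, the last at percentile 32.4. The ranges over the 12 samples overlapped for SMARCC1 and SMARCB1, for PBRM1 and SMARCD3, and for SMARCD3 and SMARCC2. They also overlapped for PBRM1 and SMARCC2, for ARID2 and SMARCA2, and for ARID1B and ARID1A. Both genes of a pair were counted in the same samples. Compared within each sample, PBRM1 lay above SMARCC2 and ARID1B above ARID1A in all 12, while the order in the other pairs varied between samples.

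The order depended on the length used. Divided by the merged length of all annotated exons, which includes untranslated sequence and rare isoforms, SMARCC1 remained first at 53.3 CPM per kilobase, but SMARCA4 at 16.5 and PBRM1 at 11.3 stood above SMARCB1 at 8.11. ARID1B, whose merged exons span 45931 bases, was lowest at 1.36. SMARCC1 was the highest and SMARCA4 exceeded SMARCA2 by either length.

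**Figure D1:**
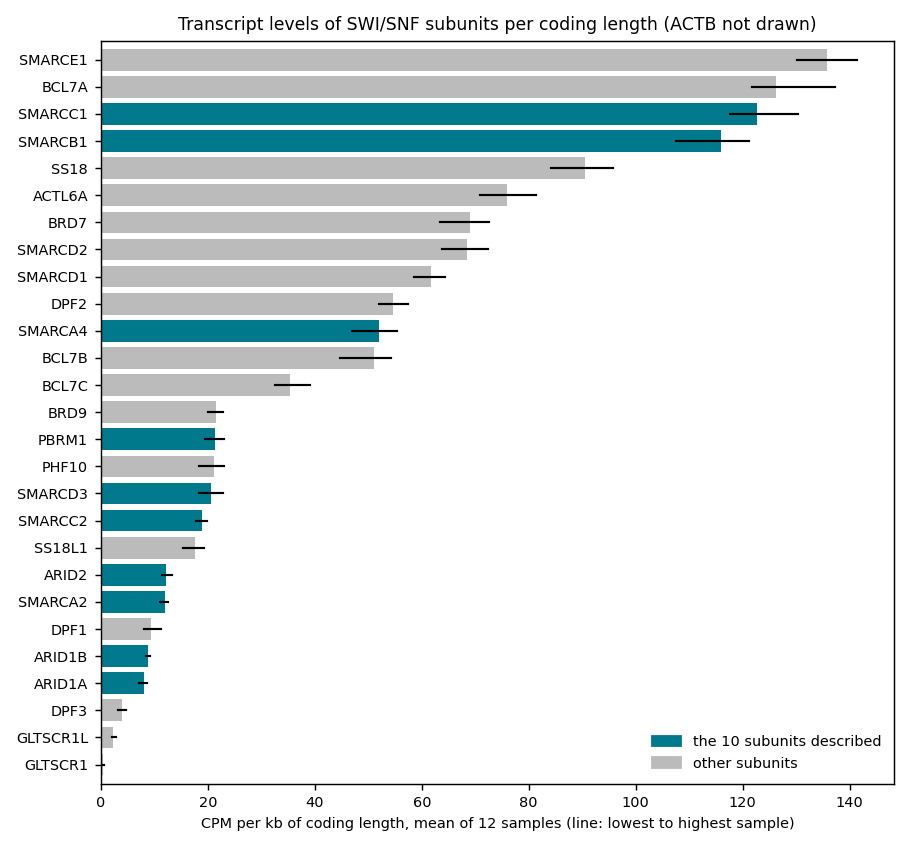
Level of each of the 10 subunits in CPM per kilobase of coding sequence over the 12 samples. SMARCC1 and SMARCB1 lie above 100 and ARID1A and ARID1B below 10 in every sample.

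Across the 12 samples each subunit stayed within a narrow range. The highest sample exceeded the lowest by a factor of 1.084 for ARID1B and of 1.235 for SMARCD3, with a median of 1.148 over the 10 members against 1.256 over the 14263 genes tested. Raw counts of the members lay between 944, for SMARCD3, and 18851, for SMARCC1. The genes tested included some with far fewer counts, such as EPCAM at 16 to 44. The medians were not compared at matched counts, so the narrower range of the members may reflect their abundance, which was not tested. The summed level of the 10 transcripts was 1244 ± 15.2 CPM in WT, 1258 ± 36.9 in Y641F, 1271 ± 22.9 in A677G and 1228 ± 40.2 in H689A/F667I (SD, n = 3), and the ranges of the 4 lines overlapped.

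**Figure D2:**
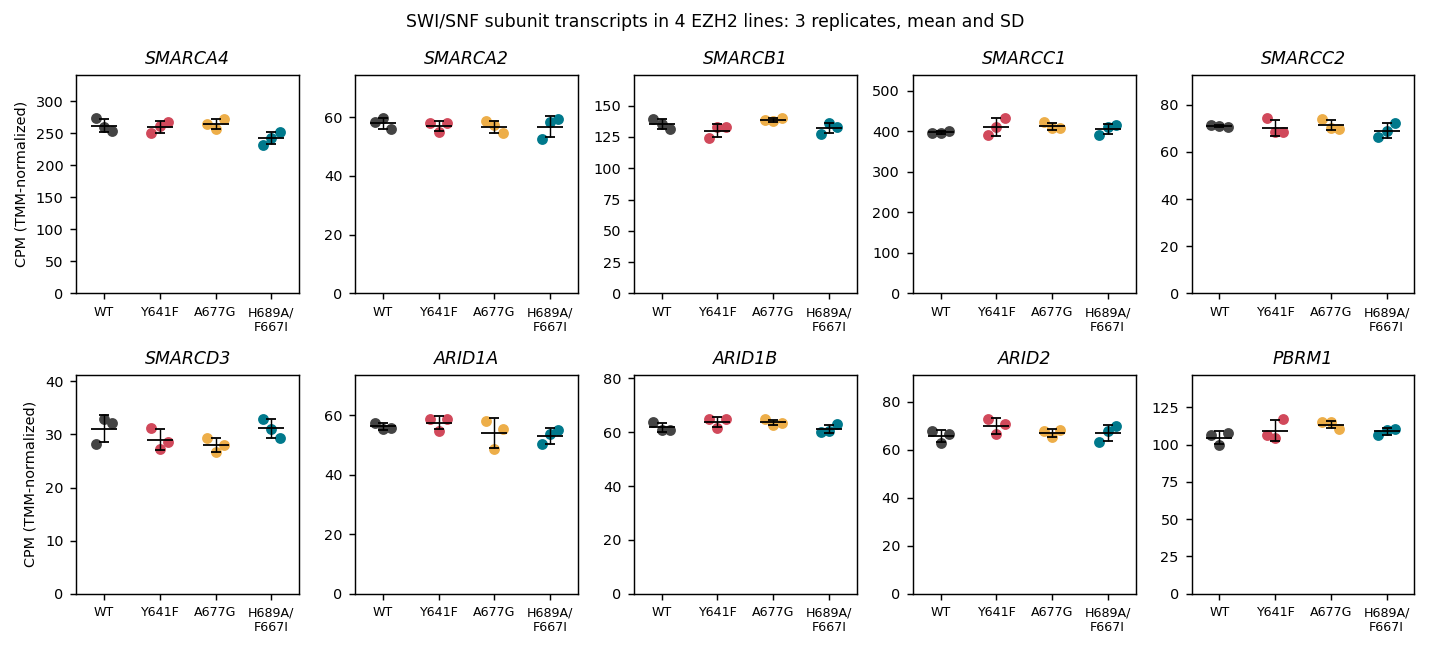
CPM of each of the 10 subunits in every replicate, with the mean and SD of each of the 4 lines (n = 3). SMARCA4 lies between 232 and 252 in H689A/F667I and between 256 and 273 in A677G, while most other panels show overlapping lines.

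The question put to each comparison was whether a mutant line differed from the WT line, or the lines from each other, in its subunit transcripts. Differences are log2 fold changes from edgeR's quasi-likelihood test, and a gene is called past the threshold at a Benjamini-Hochberg adjusted p under 0.05 over all 14263 genes. No member passed in Y641F against WT, where 7.68% of all genes did, and none reached an unadjusted p under 0.05 (19.2% of all genes). None passed in A677G against WT, where 8.55% of genes did, although 2 members had an unadjusted p under 0.05 (20.4% of all genes). None passed in H689A/F667I against WT, where 0.301% of genes did, with 1 member at an unadjusted p under 0.05 (8.3% of all genes). DESeq2 also called 0 members in each of these 3 comparisons.

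The comparisons among the mutants gave 1 call. No member passed in Y641F against A677G (0.0841% of all genes) or in Y641F against H689A/F667I (8.92% of all genes), and DESeq2 called 0 in both. An unadjusted p under 0.05 was reached by 1 member in the first (6.91% of all genes) and by 2 in the second (20.8%). SMARCA4 alone passed in A677G against H689A/F667I, where 10.3% of all genes did and where 2 members had an unadjusted p under 0.05 (21.8% of all genes). DESeq2 called 1 member there, again SMARCA4 (DESeq2 adjusted p = 0.0197). With Y641F and A677G pooled against WT and H689A/F667I, 0 members passed by edgeR and by DESeq2 against 15.9% of all genes, with 2 members at an unadjusted p under 0.05 (27.3% of all genes). In no comparison of this edgeR fit did the share of members called exceed the share of all genes.

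The replicates of compared lines were also set side by side. In A677G against WT the 3 replicates of each line did not overlap for 2 of 10 members, against 27.2% of all genes, and in H689A/F667I against WT for 2 of 10, against 15% of all genes. The number was 0 of 10 in Y641F against WT (20.9% of all genes), 1 of 10 in Y641F against A677G (10.2%), 0 of 10 in Y641F against H689A/F667I (21.9%) and 2 of 10 in A677G against H689A/F667I (28.4%). No member separated the 6 gain-of-function samples from the other 6, as 7.15% of all genes did.

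**Figure D3:**
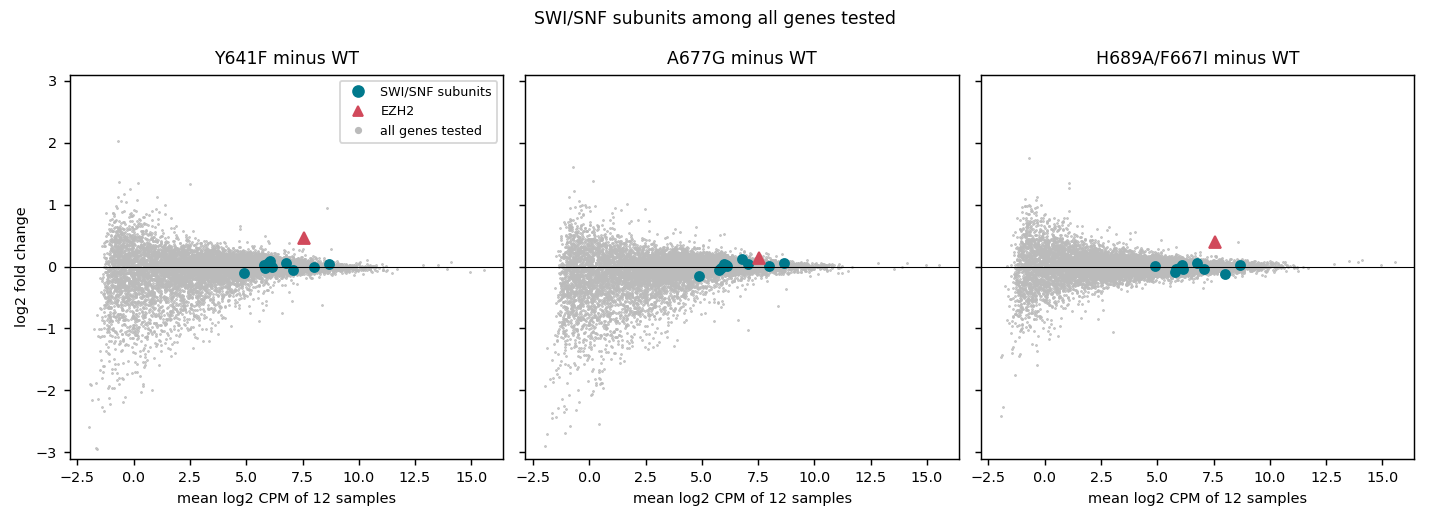
Log2 fold change of each mutant line against WT (y axis) by mean log2 CPM (x axis) for all 14263 genes tested, with the 10 subunits marked. The subunits lie between -0.15 and 0.12, close to the zero line in all 3 panels.

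SMARCA4 and SMARCA2 are mutually exclusive ATPases, the motor of every SWI/SNF complex. SMARCA4 (chr19:10960932-11079426, GRCh38) was measured at 273, 259 and 254 CPM in WT, 250, 262 and 268 in Y641F, 264, 256 and 273 in A677G and 232, 243 and 252 in H689A/F667I. The 3 H689A/F667I samples lay below all WT and A677G samples, while the highest of them, at 252 CPM, exceeded the lowest Y641F sample. SMARCA4 was 9.12% higher in A677G than in H689A/F667I (264 ± 8.28 against 242 ± 9.78 CPM, SD, n = 3), a log2 difference of 0.13 (SE 0.0391, 95% interval 0.05 to 0.21, edgeR adjusted p = 0.0314). In these bulk samples fewer cells with the transcript and less transcript per cell cannot be told apart. The call was lost, with adjusted p from 0.077 to 0.196, when A677G replicate 1 or 3 or H689A/F667I replicate 1 or 2 was left out, and with upper-quartile scaling (0.11, adjusted p = 0.0705).

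Against WT, SMARCA4 differed by -0.11 on the log2 scale in H689A/F667I (SE 0.0392, 95% interval -0.19 to -0.03), with an adjusted p of 0.337. The corresponding values were -0.01 in Y641F (adjusted p = 0.907) and 0.01 in A677G (adjusted p = 0.904), with intervals of -0.09 to 0.07 and -0.07 to 0.09. Y641F exceeded H689A/F667I by 0.10 (adjusted p = 0.115). The means of WT, Y641F and A677G lay between 260 and 264 CPM and that of H689A/F667I at 242.

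SMARCA2 (chr9:1980290-2193624), the alternative ATPase, ranged from 52.6 to 59.6 CPM. The line means were 58.0 ± 1.83 in WT, 57.0 ± 1.70 in Y641F, 56.8 ± 2.07 in A677G and 56.7 ± 3.58 in H689A/F667I (SD, n = 3). All 4 lines overlapped, and the differences from WT were -0.02, -0.03 and -0.03 in Y641F, A677G and H689A/F667I. The 3 intervals together ran from -0.13 to 0.08. SMARCA4 and SMARCA2 are paralogs, and reads that fit both would have been divided by Salmon's estimate of transcript abundance, so their separate counts carry that uncertainty.

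Among the core subunits, SMARCB1 (chr22:23786931-23838009) had 139, 135 and 132 CPM in WT, 124, 133 and 133 in Y641F, 138, 137 and 140 in A677G and 128, 136 and 133 in H689A/F667I. The A677G samples lay closest together and above those of Y641F and H689A/F667I without overlap. The log2 difference was -0.09 for Y641F against A677G (edgeR adjusted p = 0.660) and 0.07 for A677G against H689A/F667I (adjusted p = 0.331), so neither passed the threshold. Against WT the 3 mutants differed by -0.06, 0.03 and -0.03 in the order Y641F, A677G and H689A/F667I.

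SMARCC1 (chr3:47585269-47782106) and SMARCC2 (chr12:56162359-56189567) are related scaffold proteins around which the complexes assemble. SMARCC1 had 395, 397 and 401 CPM in WT, and all A677G samples, at 408 to 423, lay above these. The difference was 0.06 (95% interval -0.02 to 0.13, adjusted p = 0.436). SMARCC1 means were 411 ± 21.1 in Y641F and 406 ± 13.1 in H689A/F667I (SD, n = 3), whose samples overlapped WT. SMARCC2 stayed between 66.3 and 74.3 CPM, with means of 71.0 ± 0.483 in WT, 70.4 ± 3.41 in Y641F, 71.5 ± 2.31 in A677G and 69.1 ± 3.00 in H689A/F667I, and all lines overlapped.

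SMARCD3 (chr7:151238764-151277896) is 1 of the alternative SMARCD subunits, which link the complexes to transcription factors, and is best known from heart and muscle. It was counted at 28.3, 33.0 and 32.1 CPM in WT, 31.3, 27.2 and 28.6 in Y641F, 29.4, 26.7 and 27.9 in A677G and 33.0, 31.1 and 29.3 in H689A/F667I. The gain-of-function samples were mostly low, but the lowest WT sample lay below the highest sample of each, so the lines overlapped. SMARCD3 averaged 28.5 CPM in the 6 gain-of-function samples and 31.1 in the other 6, a change of -8.30% with an interval of -14.2% to -1.96% (log2 -0.13, SE 0.0476, adjusted p = 0.0709). The difference was -0.15 for A677G against WT (adjusted p = 0.188), -0.10 for Y641F against WT (adjusted p = 0.468) and 0.00 for H689A/F667I against WT. Without WT replicate 1, Y641F replicate 1 or H689A/F667I replicate 3, the gain-of-function comparison came to -0.16, -0.15 and -0.14 with adjusted p of 0.0243, 0.020 and 0.0485. Without WT replicate 2, Y641F replicate 2 or H689A/F667I replicate 1 it came to -0.10 in each case, with adjusted p of 0.217, 0.170 and 0.207, so that single samples decided on which side of the threshold SMARCD3 fell. SMARCD3 was the least abundant of the 10 in raw counts and had the widest intervals.

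ARID1A (chr1:26693236-26782104) and ARID1B (chr6:156776020-157210779) are mutually exclusive DNA-binding subunits that mark the canonical BAF form of the complex. ARID1A had 57.6, 55.5 and 55.8 CPM in WT, 58.9, 54.9 and 58.8 in Y641F, 58.2, 48.6 and 55.4 in A677G and 50.2, 53.8 and 55.2 in H689A/F667I. The 48.6 CPM of A677G replicate 2 was the lowest of the 12 samples, and the H689A/F667I samples lay below those of WT without overlap. The latter difference was -0.09 (95% interval -0.20 to 0.03, adjusted p = 0.736), and Y641F exceeded H689A/F667I by 0.12 (adjusted p = 0.201). ARID1B stayed between 60.0 and 65.0 CPM, the narrowest range of the members, with differences from WT of 0.05, 0.04 and -0.02 in Y641F, A677G and H689A/F667I, none past the threshold.

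ARID2 (chr12:45729706-45908040) and PBRM1 (chr3:52545352-52685917), a protein with multiple bromodomains, mark the PBAF form. PBRM1 was measured at 107, 99.5 and 108 CPM in WT, 107, 104 and 117 in Y641F, 115, 115 and 110 in A677G and 106, 110 and 111 in H689A/F667I. The A677G samples exceeded all WT samples. This difference was 0.12 (SE 0.0439, 95% interval 0.03 to 0.21, adjusted p = 0.0993), or 114 ± 2.66 against 105 ± 4.57 CPM (SD, n = 3). PBRM1 passed in a fit of the A677G and WT samples alone, where the value was again 0.12 with an adjusted p of 0.0333. With 1 sample left out it ranged from 0.08 without WT replicate 2 (adjusted p = 0.435) to 0.14 without WT replicate 3 (adjusted p = 0.0808). The differences from WT were 0.06 in both Y641F (adjusted p = 0.463) and H689A/F667I (adjusted p = 0.785).

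ARID2 averaged 65.7 ± 2.63 CPM in WT, 70.0 ± 3.31 in Y641F, 67.1 ± 1.65 in A677G and 67.1 ± 3.44 in H689A/F667I (SD, n = 3). Its largest difference from WT was 0.09 in Y641F (95% interval -0.01 to 0.19, adjusted p = 0.298), and the 2 lines overlapped. The differences in A677G and H689A/F667I were both 0.03.

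**Figure D4:**
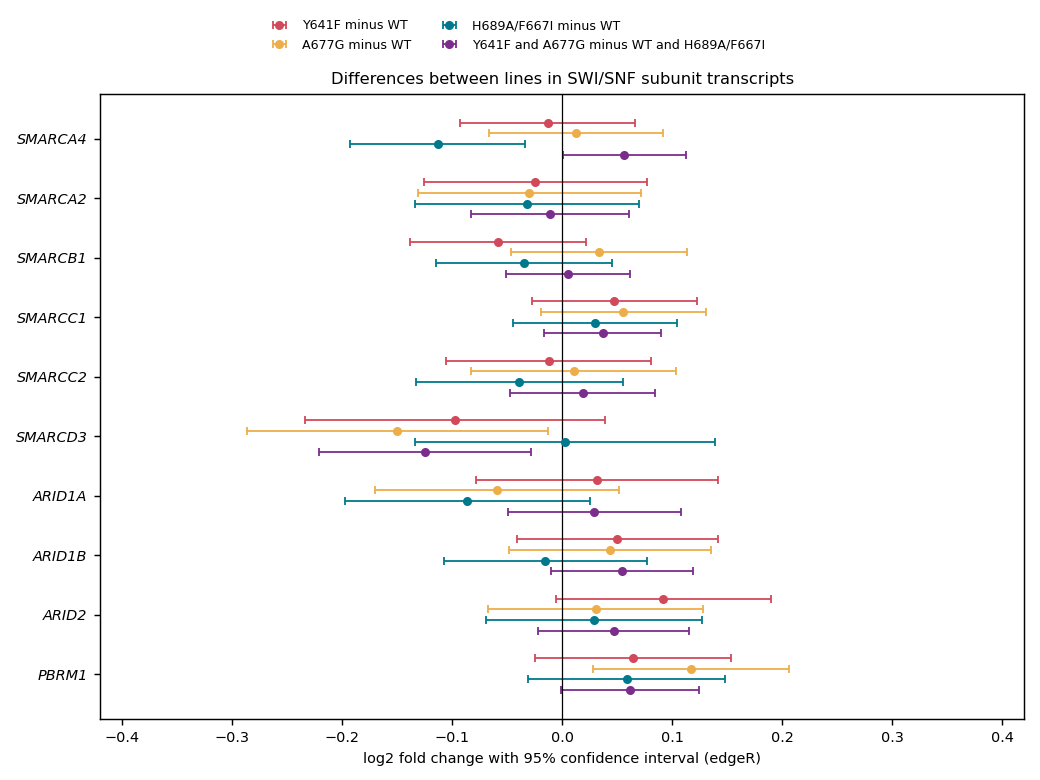
Log2 fold change of each subunit with its 95% interval, for each mutant line against WT and for the gain-of-function samples against the rest. Over all 7 comparisons of the text, including those not drawn, the intervals lie between -0.29 and 0.23. Only SMARCA4 in A677G against H689A/F667I, which is not drawn, was past the adjusted threshold.

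The intervals bound how far the subunits could have moved. Over 10 members and 7 comparisons the lowest bound was -0.29, for SMARCD3 in A677G against H689A/F667I, which is a factor of 0.8185. The highest bound was 0.23, for ARID1A in Y641F against H689A/F667I, a factor of 1.172. Of the 70 intervals, 10 excluded 0, which is the same as an unadjusted p under 0.05, a level that 6.91% to 27.3% of all genes reached in the single comparisons. Genes that passed had a median size of change of 0.43 in Y641F, 0.45 in A677G and 0.32 in H689A/F667I, each against WT. These medians were larger in size than the ends of the 70 intervals. The smallest called changes were 0.10, 0.11 and 0.16 in the same order, beside largest member changes of 0.10, 0.15 and 0.11 in size. The median log2 change of the 10 members was 0.01, 0.02 and -0.02 in the same order, with 0.00 for all genes in each. It was 0.03 for the gain-of-function samples against the rest, with 0.01 for all genes.

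Comparisons without common samples could be set side by side. Y641F against WT and A677G against H689A/F667I had the same sign for 6 of 10 members, and A677G against WT and Y641F against H689A/F667I for 7 of 10. The share over all genes was 64.2% in each of these pairs of comparisons.

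Some of these subunits are alternatives for the same place in the complex, such as SMARCA4 and SMARCA2 or ARID1A and ARID1B. Ratios of subunit counts within a sample do not depend on the scaling between samples. The ratios are of counts not divided by length, so their height carries the lengths of both genes and only their change between samples is compared. SMARCA4 to SMARCA2 was 4.52 ± 0.171 in WT, 4.56 ± 0.225 in Y641F, 4.66 ± 0.295 in A677G and 4.28 ± 0.124 in H689A/F667I (SD, n = 3). The 6 gain-of-function samples exceeded the other 6 by 0.07 on the log2 scale (two-sided exact permutation p = 0.121, adjusted over 5 ratios 0.303). The ratio of SMARCC1 to SMARCC2 lay at 5.60 ± 0.0809, 5.85 ± 0.545, 5.78 ± 0.0657 and 5.87 ± 0.11 in the same order of lines, a difference of 0.02 (exact permutation p = 0.652, adjusted 0.703).

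For the subunits that distinguish the forms of the complex, ARID1A to ARID1B was 0.912 ± 0.00803 in WT, 0.900 ± 0.00934 in Y641F, 0.849 ± 0.065 in A677G and 0.868 ± 0.0277 in H689A/F667I (SD, n = 3). A677G replicate 2, at 0.775, was the lowest sample, and the gain-of-function samples differed from the rest by -0.03 (exact permutation p = 0.582, adjusted 0.703). The summed PBAF subunits ARID2 and PBRM1 stood to the summed BAF subunits ARID1A and ARID1B at 1.44 ± 0.0527, 1.48 ± 0.0367, 1.54 ± 0.0714 and 1.54 ± 0.0143 in the same order, a difference of 0.01 (exact permutation p = 0.703, adjusted 0.703). SMARCD3 to the sum of its alternatives SMARCD1 and SMARCD2 was 0.154 ± 0.0151, 0.144 ± 0.0131, 0.134 ± 0.00853 and 0.151 ± 0.0123, a difference of -0.13 (exact permutation p = 0.0931, adjusted 0.303). No ratio differed past the threshold between the 6 gain-of-function samples and the rest, where the smallest p that 924 arrangements allow is 0.00216.

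Pooling WT with H689A/F667I does not show how single lines differed. Of 30 comparisons of a ratio between 2 lines, 7 reached an exact permutation p of 0.1, the smallest that 3 against 3 samples allow. With no difference between lines, a share of 0.1 of such comparisons would reach this p. The 30 are not independent, since they share samples and genes, and the 7 are given as values only. The summed PBAF to BAF subunits were higher in H689A/F667I than in WT by 0.10 and higher than in Y641F by 0.06, and the 3 H689A/F667I samples, at 1.53 to 1.56, lay above all samples of these lines. ARID1A to ARID1B lay lower than WT by 0.11 in A677G and by 0.07 in H689A/F667I. SMARCC1 to SMARCC2 lay above WT by 0.05 in A677G and by 0.07 in H689A/F667I, and SMARCA4 to SMARCA2 was 0.12 higher in A677G than in H689A/F667I. These values are on the log2 scale, and with 3 samples a line none can pass 0.05.

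**Figure D5:**
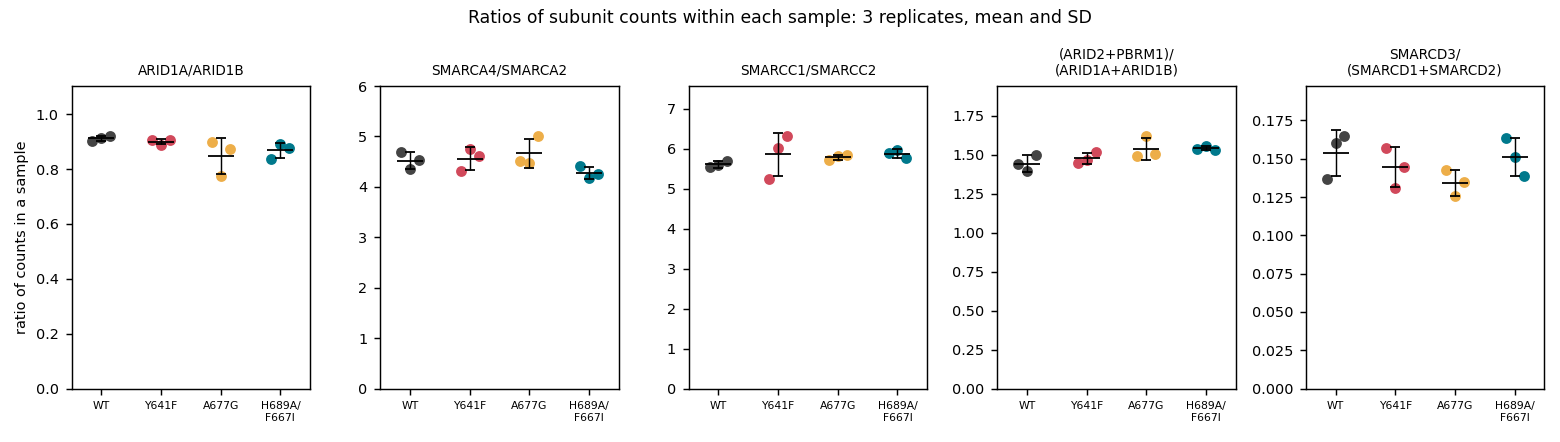
Ratios of subunit counts in each of the 12 samples, with the mean and SD of each line (n = 3). SMARCA4 to SMARCA2 runs from 4.17 to 5.00 and ARID1A to ARID1B from 0.775 to 0.920, and the gain-of-function samples overlap the others in each ratio.

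Of 19 other subunits of the complexes that were listed, 18 were measured, and SS18 was the single gene among them past the threshold in any of the 7 comparisons. SS18, which sits beside the ATPase and is fused to SSX genes in synovial sarcoma, averaged 111 ± 2.50 CPM in WT, 117 ± 3.49 in Y641F, 117 ± 2.24 in A677G and 110 ± 4.25 in H689A/F667I (SD, n = 3). It was higher in the gain-of-function samples by 0.08 (SE 0.0284, adjusted p = 0.0364). That call was lost when size factors came from the upper quartile (0.07, adjusted p = 0.107), with a robust correction for GC content (0.07, adjusted p = 0.055), and without any of 8 samples: WT replicate 1 or 2, Y641F replicate 3, A677G replicate 1, 2 or 3, or H689A/F667I replicate 1 or 2 (0.07 to 0.09, adjusted p from 0.0527 to 0.111). Of 16 other remodelling ATPases, 2 were higher and 1 lower in the same comparison, where 15.9% of all genes passed, and 1 was higher and 1 lower in Y641F against WT (7.68% of all genes). A further 1 was lower in Y641F against H689A/F667I (8.92% of all genes) and 1 in A677G against H689A/F667I (10.3%), and none passed in the other comparisons.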

How the data were processed

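Stranded mRNA libraries of 12 HEK293T samples were sequenced. Per the labels and the study's methods, reads were trimmed with Trim Galore 0.6.5, aligned to GRCh38 with STAR 2.7.9a and quantified with Salmon 1.2.0. The deposited values are whole-number counts per gene symbol, and the step from Salmon's estimates to these counts, and the gene filter behind the 14438 rows, were not given in the sources used here. The 175 genes at 0 in all replicates of a line were left out, a choice made with the counts known, leaving 14263.

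Counts were fitted with edgeR 4.0.16 (R 4.3.3), TMM scaling and the quasi-likelihood test, with 1 coefficient per line over all 12 samples and Benjamini-Hochberg adjustment. CPM values use TMM library sizes. Gene positions and lengths came from GENCODE v44 (GRCh38), with 13272 symbols matched by name and 809 by an older symbol. Within-sample ratios were compared by two-sided exact permutation. Alternatives included DESeq2 1.42.0, edgeR's exact test, other scalings and filters, corrections for GC content, a replicate block and each sample left out. The code was tested on simulated data. All 10 members were named, other listed subunits where they passed the threshold, and remodelling ATPases by count alone. Nearest genes were to be named for members past the threshold against WT, which none were. The members and lists were chosen with earlier results of these data known. The result for 1 marker gene is not reported here.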

Additional observations from a re-analysis of the deposited data

Results flagged for a closer look

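SMARCA4 was picked out because 2 lines differed in their change from WT: the change in A677G exceeded that in H689A/F667I by 0.13 on the log2 scale, tested as the direct difference between the lines (edgeR adjusted p = 0.0314). The 3 samples of A677G lay above the 3 of H689A/F667I. Neither line differed from WT past the threshold, and the call was lost without any of 4 samples and with upper-quartile scaling, as given above.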

How the results depend on the processing

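Over 1520 recomputed member values, 5 lost the threshold and 12 gained it. A change of sign was counted as a reversal only for values past the threshold in either fit, and 0 of these reversed. A further 82 of the 1520 values changed sign without being past the threshold in either fit. Members past the threshold in A677G against H689A/F667I numbered 0 instead of 1 with upper-quartile scaling (SMARCA4 0.11, adjusted p = 0.0705) and 0 to 1 with 1 sample left out. In the gain-of-function comparison 1 member passed with upper-quartile scaling (SMARCD3, lower, adjusted p = 0.0395), where 2271 of 14263 genes passed. With 1 sample left out 0 to 1 member passed, beside 1856 to 2550 genes. With a least-squares GC curve 4 members passed, all higher: SMARCA4, SMARCC1, ARID1B and PBRM1 (0.07 to 0.10, edgeR adjusted p from 0.0161 to 0.0348). With that curve 3250 of 13920 genes passed, a smaller share than that of the members. In A677G against WT 1 member, PBRM1, passed with the GC curve, where 1643 of 13920 genes did. It also passed when only the compared lines were fitted, where 1618 of 14263 genes did. In Y641F against H689A/F667I 1 member (SMARCA4) passed with the GC curve, where 1693 of 13920 genes did. With 1 sample left out 0 to 1 passed, where SMARCA4 passed without Y641F replicate 1, beside 1379 of 14263 genes. The least-squares curve shifted the median of all genes to 0.03 in the gain-of-function comparison. A robust curve, chosen after seeing the data, gave the same member calls as no correction. None of the 5 ratios passed the threshold under the alternatives run.

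Genes past the threshold in H689A/F667I against WT numbered 43, and 169 with the left-out genes kept, 86 with only those lines fitted, 75 by edgeR's exact test and 11 to 65 with 1 sample left out. In Y641F against A677G the number was 12, and 178, 23 by the exact test, 19 by DESeq2 and 8 to 57. With 1 sample left out it ran from 703 to 1232 in Y641F against WT, from 825 to 1457 in A677G against WT, from 821 to 1379 in Y641F against H689A/F667I and from 1049 to 1720 in A677G against H689A/F667I.

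Same-numbered replicates did not pair: correlations of their deviations ran from -0.0557 to 0.0501 over 18 pairs, and 3 of 12 samples correlated best with their own number. The replicate block changed no member call (1 in A677G against H689A/F667I and 0 elsewhere) and gave 1108 genes in Y641F against WT, 1238 in A677G against WT and 40 in H689A/F667I against WT. With 3 replicates a line, standard errors of 0.0261 to 0.0674 limit what could be seen. The exact test was not run for the gain-of-function comparison, which joins lines.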
